A study of Mus musculus with 2 samples.

Results

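The ubiquitin-specific proteases (USPs), together with the genes of their activating partners WDR48 and WDR20, were examined in mouse peritoneal macrophages after knockdown of the histone deacetylase HDAC9. The members were all genes whose platform symbol has the form Usp followed by a number, with Usp18 left out, plus Wdr48 and Wdr20. They numbered 49 of the 18193 genes measured, of which 47 were USPs. Genes were taken by name. The probe set that stands for a gene was chosen by its mean linear signal over both arrays, the highest one being used, and Wdr48 was selected on its low ratio on these same arrays, so its gene value below is a description.

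Both groups were peritoneal macrophages of male C57BL/6 mice, with RNA taken 48 h after transfection with an siRNA against HDAC9 (1 array) or with a control siRNA (1 array). The labels do not say how many mice gave the cells or whether cells were pooled. With 1 array per group no difference could be set against a spread between cultures, so no test was made and every ratio describes these 2 arrays. The only measure of scatter was that between probe sets of the same gene. The ratios of the 2 probe sets with the highest signals, over 5671 genes, differed with a standard deviation that corresponds to 0.29 log2 units for 1 probe set.

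USPs are cysteine proteases that remove ubiquitin from proteins or take ubiquitin chains apart. They make up the largest family of deubiquitinases in mammals. Some have little activity alone: USP1, USP12 and USP46 are switched on by binding the WD40-repeat protein WDR48, also called UAF1, and WDR20 further stimulates USP12 and USP46. In macrophages, members of the family are known to act on receptor signalling, interferon and NF-kappaB pathways, histones and the proteasome. Usp18 removes the ubiquitin-like protein ISG15 instead of ubiquitin and is an interferon-stimulated gene; its log2 signal was 11.69 on the HDAC9 siRNA array and 10.82 on the control array, a log2 ratio of 0.87.

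A signal was taken as above background when it exceeded log2 6.34, the 95th percentile of 80 probe sets for olfactory and vomeronasal receptors, and lower signals were raised to this floor before the ratio was taken. Of the 49 members, 44 exceeded the floor on at least 1 array, and 42 on both. Usp26, Usp29, Usp44, Usp50 and the Y-linked Usp9y were below it on both arrays. A further 2 mouse USP genes, Usp35 and Usp51, had no probe set with a symbol of their own in the annotation used and were not analysed here.

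Wdr48 had the lowest gene value of all members, and its probe sets disagreed. The probe set that gives its gene value, 1443836_x_at, had a log2 signal of 8.02 on the HDAC9 siRNA array and 9.71 on the control array, a log2 ratio of -1.68, or 3.21-fold lower. It had the highest mean linear signal only through the control array. On the HDAC9 siRNA array it was the dimmest of the 3 above background, so the choice of probe set was tied to its low ratio. Probe set 1426723_at had 8.58 on the HDAC9 siRNA array and 8.70 on the control array, a log2 ratio of -0.13. Probe set 1452162_at had 8.53 on the HDAC9 siRNA array and 8.57 on the control array, a log2 ratio of -0.04. Thus 1 of the 3 probe sets above background was past 2-fold, and the others were closer to 0 than the probe-set scatter of 0.29. The remaining one, 1447765_at, was below background on both arrays, at 4.30 on the HDAC9 siRNA array and 2.80 on the control array.

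The name of the Wdr48 probe set past 2-fold ends in _x_at, the manufacturer's mark for probe sets in which some probes match other transcripts as well; which transcripts these are was not tested. The log2 ratios of the 2 Wdr48 probe sets with the highest mean signals differed by 1.56. Of the 5671 genes with several probe sets above background, 15 (0.265%) had a gap at least as large. As Wdr48 was selected on its low ratio on these same arrays, nothing is read from that share. Gene values rested on _x_at probe sets for 9.13% of the 219 genes past 2-fold over the whole array and for 4.04% of all 12090 genes above background. Among the members, 2 gene values did, those of Wdr48 and Usp39.

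**Figure D1:**
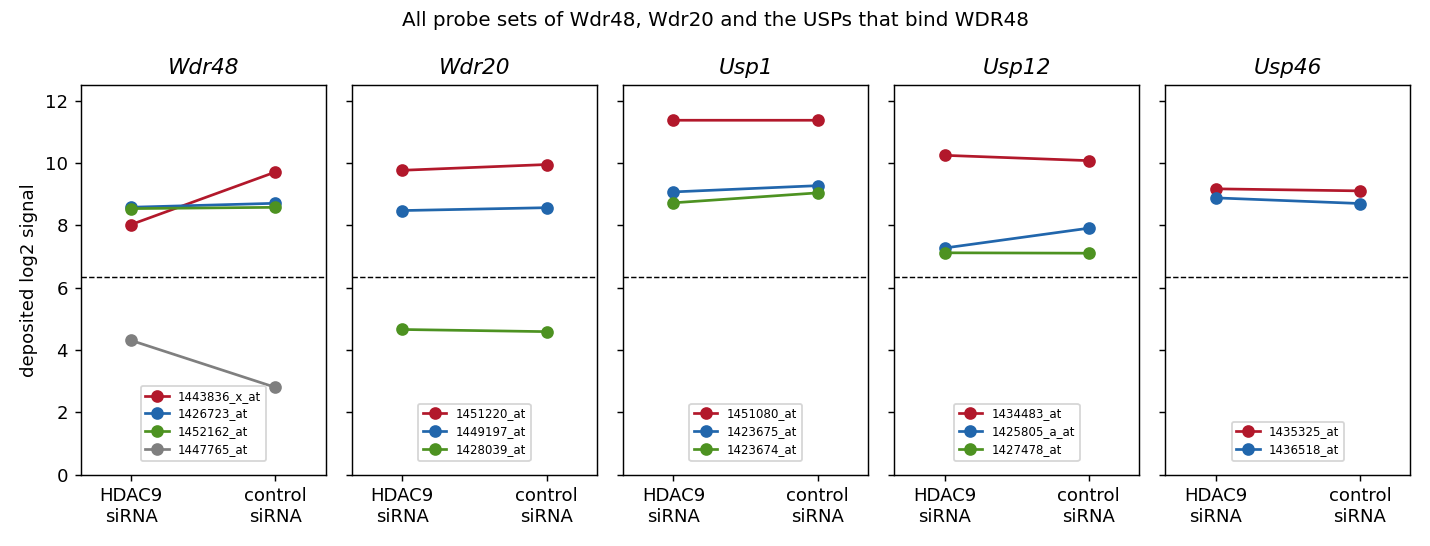
Deposited log2 signal (vertical axis) on the HDAC9 siRNA array (left point of each line) and the control siRNA array (right point) for every probe set of Wdr48, Wdr20, Usp1, Usp12 and Usp46; the dashed line is the background floor at 6.34 and there is 1 array per group. In the Wdr48 panel the line of 1443836_x_at is steep, at 8.02 for HDAC9 siRNA and 9.71 for control siRNA, while those of 1426723_at and 1452162_at are nearly flat.

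The proteases that WDR48 activates had gene values close to 0, but dimmer probe sets of Usp1 (-0.32) and Usp12 (-0.64) went past the probe-set scatter of 0.29. Usp1, which deubiquitinates FANCD2 and PCNA in DNA repair, had a log2 signal of 11.37 on both arrays, and its other probe sets had ratios of -0.20 and -0.32. Usp12 had 10.24 on the HDAC9 siRNA array and 10.07 on the control array, a ratio of 0.17. Its probe set 1425805_a_at had 7.27 on the HDAC9 siRNA array and 7.91 on the control array, a ratio of -0.64, and its remaining one was at 0.01. The probe sets of Usp12 therefore did not share a direction.

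Usp46, the close relative of Usp12, had 9.17 on the HDAC9 siRNA array and 9.10 on the control array, a ratio of 0.07, and its second probe set had a ratio of 0.18. Wdr20 had 9.76 on the HDAC9 siRNA array and 9.95 on the control array, a ratio of -0.19, and its other probe set above background was at -0.09. For Usp46 and Wdr20 the probe sets pointed the same way, with ratios smaller than the probe-set scatter.

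Across the family, 3 of the 44 members above background (6.82%) were past 2-fold, compared with 1.81% of all 12090 genes above background; as Wdr48 was selected on this contrast, nothing is read from that share. Higher on the HDAC9 siRNA array were Usp11 and Usp36 (2 members; 1.44% of all genes), and lower was Wdr48 (1 member; 0.372% of all genes). Each of these calls rested on 1 probe set: of 128 member probe sets, 102 were above background, 2 of them were past 2-fold upward and 1 downward. At 1.5-fold, 4 members were higher, against 7.81% of all genes, and 1 was lower, against 2.79%.

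Usp11, an X-linked protease linked to BRCA2 and DNA repair, had a log2 signal of 7.58 on the HDAC9 siRNA array and 5.84, below background, on the control array. Its ratio is therefore a bound: Usp11 was at least 2.36-fold higher. It was read by 1 probe set. A stricter floor, the 99th percentile of those receptors' signals, gave a bound of 0.65, short of 2-fold.

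Usp36, a nucleolar protease, had 8.98 on the HDAC9 siRNA array and 7.97 on the control array, a log2 ratio of 1.02, or 2.02-fold higher. Its second probe set had 7.76 on the HDAC9 siRNA array and 7.36 on the control array, a ratio of 0.40, and the third was below background on both. Usp36 stood just past the 2-fold line, and it was short of it after centring on the median (0.99), quantile normalization (0.94) and loess on signal (0.95). Usp37, which deubiquitinates cyclin A in the cell cycle, stood just short of the line, with 8.85 on the HDAC9 siRNA array and 7.93 on the control array. Its log2 ratio was 0.92, and that of its second probe set 0.42. Usp36 and Usp37 were higher by both of their probe sets above background, by less in the dimmer one.

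The promoters of the 3 genes past 2-fold are shown because the calls differ in direction among them while the sequences share a short motif. They come from RefSeq, assembly GRCm38.p6, and run from 250 bases before the annotated gene start to 50 after it, 5′ to 3′ on the gene's strand. Capitals mark CGGAAG or its reverse complement CTTCCG, the core of sites bound by ETS-family transcription factors, a motif chosen after these sequences were seen. Wdr48 lies at chr9:119894645-119894944 (plus strand), Usp11 at chrX:20703659-20703958 (plus strand) and Usp36 at chr11:118290195-118290494 (minus strand).
Wdr48: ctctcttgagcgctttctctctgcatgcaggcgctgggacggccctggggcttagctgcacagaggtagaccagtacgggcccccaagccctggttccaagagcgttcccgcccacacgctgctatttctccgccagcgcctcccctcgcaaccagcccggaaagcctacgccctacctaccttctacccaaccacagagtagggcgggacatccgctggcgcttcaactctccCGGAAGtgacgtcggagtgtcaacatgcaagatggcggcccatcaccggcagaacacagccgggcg
Usp11: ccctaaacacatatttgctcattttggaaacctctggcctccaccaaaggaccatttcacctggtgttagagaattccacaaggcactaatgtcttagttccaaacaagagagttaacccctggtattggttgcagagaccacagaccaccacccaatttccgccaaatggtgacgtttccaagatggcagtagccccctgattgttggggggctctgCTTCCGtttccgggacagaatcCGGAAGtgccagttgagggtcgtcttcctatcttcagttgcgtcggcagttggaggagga
Usp36: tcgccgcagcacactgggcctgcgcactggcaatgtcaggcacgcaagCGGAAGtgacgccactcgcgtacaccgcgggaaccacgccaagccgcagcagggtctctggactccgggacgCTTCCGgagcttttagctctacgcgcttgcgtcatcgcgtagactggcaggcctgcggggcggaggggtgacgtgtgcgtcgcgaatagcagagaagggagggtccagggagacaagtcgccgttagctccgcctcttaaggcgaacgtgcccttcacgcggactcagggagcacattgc

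Wdr48 held 1 copy of the motif, and Usp11 and Usp36 held 2 each. Promoters were given for 34 of the 44 members above background, and 15 of them (44.1%) held it on either strand, against 3061 of 9763 promoters of all genes above background (31.4%). The 15 include Wdr48, Usp11 and Usp36, whose promoters were seen before the motif was chosen, so nothing is read from the difference. The family's promoters were rich in CpG dinucleotides: the median was 32 per 300 bases, ranging from 5 to 63, against 21 over all genes above background. Usp36 had 33, Wdr48 had 22 and Usp11 had 8. These are properties of the letters in these windows, and no binding was measured.

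Most members had small ratios. The 44 members had a median log2 ratio of 0.12, against 0.03 over all 12090 genes, and 32 of them (72.7%) were above 0, against 54.1% of all genes. The count above 0 depended on the scaling. After centring on the median, Usp1 (-0.03), Usp24 (-0.02), Usp28 (-0.02) and Usp33 (-0.01) were below 0, and the share over all genes falls too. The middle 50% of members lay between -0.02 and 0.20, and that of all genes between -0.15 and 0.25. The 5th and 95th percentiles were -0.46 and 0.88 for members, the wider range, and -0.46 and 0.71 for all genes. For 32 members (72.7%) the ratio was smaller than the probe-set scatter, as it was for 65.7% of all genes. The median over members was 0.05 when each gene was given the median ratio of its probe sets, and 0.07 after quantile normalization.

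**Figure D2:**
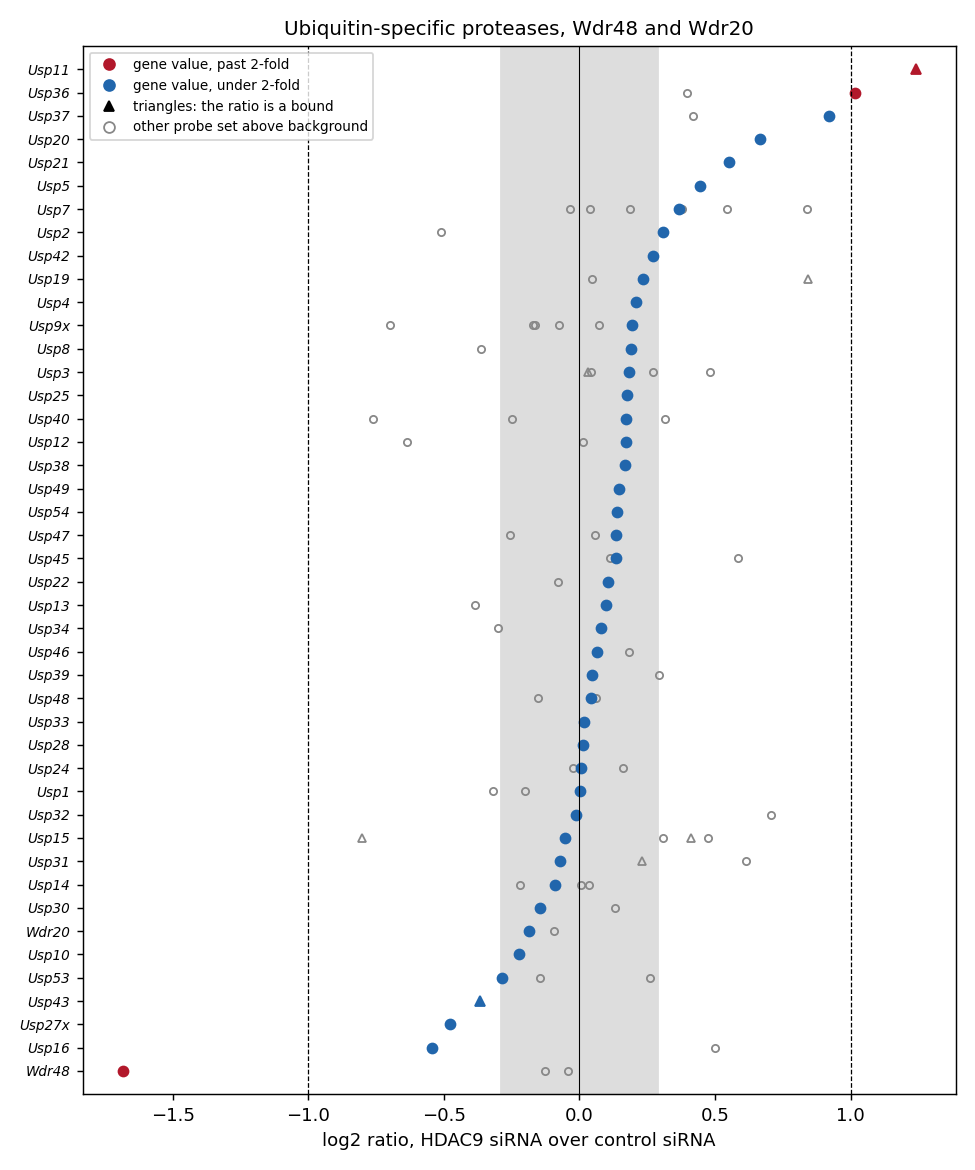
Ratio of HDAC9 siRNA to control siRNA on the log2 scale (horizontal axis) for the 44 members above background, 1 per row; filled symbols are gene values, open symbols the gene's other probe sets above background, triangles bounds, the grey band the probe-set scatter of 0.29 and dashed lines 2-fold. Wdr48 stands alone at the left at -1.68 with its other probe sets inside the band, and Usp11 and Usp36 are at the right.

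The direction of a small ratio was often not shared by a second probe set. Among the 29 members with at least 2 probe sets above background, the 2 with the highest signals had the same sign in 13 (44.8%), against 61.2% of the 5671 genes of this kind over the whole array. The probe-set scatter within these members was 0.39 log2 units, or 0.33 without Wdr48. Usp16, which removes ubiquitin from histone H2A, had the widest gap among members whose leading probe sets differed in sign. Its probe set 1431951_a_at had 9.63 on the HDAC9 siRNA array and 10.18 on the control array, a ratio of -0.54, while 1430203_at had 7.04 on the HDAC9 siRNA array and 6.54 on the control array, a ratio of 0.50.

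Proteases of the proteasome and of free ubiquitin chains were under 2-fold. Usp14, which sits on the proteasome and trims ubiquitin from its substrates, had 11.79 on the HDAC9 siRNA array and 11.88 on the control array, a ratio of -0.09, and the ratios of its other 3 probe sets ran from -0.22 to 0.03. Usp5, which takes apart unanchored ubiquitin chains, had 10.23 on the HDAC9 siRNA array and 9.78 on the control array, a ratio of 0.44 from its 1 probe set. Its relative Usp13 was at 0.10 by one probe set and -0.39 by the other. Of these genes Usp5 alone had a gene value larger than the probe-set scatter.

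Of the 12 members grouped under chromatin and p53, 11 were above background, with Usp11 and Usp36 the 2 past 2-fold upward, against 1.44% of all genes. Of the 11 ratios 8 were above 0, against 54.1% of all genes, and the median was 0.18. The grouping was made with these values known, so nothing is read from these counts. Usp11, linked above to DNA repair, could also be placed with genome maintenance. Usp7, which stabilises MDM2 and p53, had 11.53 on the HDAC9 siRNA array and 11.17 on the control array, a ratio of 0.37. All 7 of its probe sets were above background, with ratios from -0.03 to 0.84, and 6 of them were above 0. The one at -0.03 had the second highest mean signal, and Usp7 took this value once names in _s_at, _x_at and _a_at were left out. Usp21, another protease of histone H2A, had 8.93 on the HDAC9 siRNA array and 8.38 on the control array, a ratio of 0.55 from 1 probe set. The gene values of Usp7 and Usp21 were larger than the scatter and short of 2-fold, and that of Usp7 depended on the probe set.

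Other chromatin members lay nearer to 0 or were lower. Usp22, the protease of the SAGA coactivator complex that acts on histone H2B, was at 0.11, and its relative Usp27x had 6.98 on the HDAC9 siRNA array and 7.45 on the control array, a ratio of -0.48. Usp42, which acts on p53, was at 0.27. Usp3, which acts on ubiquitinated histones, was at 0.18, and all 5 of its probe sets had ratios above 0, up to 0.48. Usp49, described as an H2B protease, was at 0.15 and Usp10, which acts on p53 and binds the stress granule protein G3BP1, at -0.22. In this group Usp3 and Usp7 were the members read by the most probe sets.

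The 7 members that act in immune and stress signalling were all above background and all under 2-fold, with a median of 0.17. Usp2, which acts on MDM2 and in the circadian clock, had 7.90 on the HDAC9 siRNA array and 7.59 on the control array, a ratio of 0.31, but its second probe set was at -0.51. Usp4, known to act on the kinase TAK1, was at 0.21, Usp25, known to act on TRAF3, at 0.18 and Usp38 at 0.17. Usp48 was at 0.04 and Usp31 at -0.07. Usp15, a regulator of TGF-beta and RIG-I signalling, had 11.17 on the HDAC9 siRNA array and 11.22 on the control array, a ratio of -0.05. The other probe sets of Usp15 above background ran from -0.80, a bound, to 0.47, so its dim probe sets had no common direction.

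Among the 8 proteases of membrane traffic and organelles, 7 were above background and 5 of those had ratios above 0, against 54.1% of all genes, with a median of 0.19. Usp20, a protease that binds the VHL tumour suppressor, had 7.97 on the HDAC9 siRNA array and 7.30 on the control array, 1.58-fold higher from the 1 probe set above background. Its relative Usp33 was at 0.02, and at -0.01 after centring on the median. Usp8, which acts on endosomal receptors, was at 0.19 and -0.36 by its 2 probe sets, and the endoplasmic reticulum protease Usp19 at 0.23. Usp9x, which acts on many substrates including SMAD4 and MCL1, had a gene value of 0.20, and its other 5 probe sets above background ran from -0.70 to 0.07. Usp30, of the mitochondrial outer membrane, was at -0.15, and Usp32, known from the Golgi, at -0.01. In this group Usp20 had the largest ratio, and the direction for Usp8 and Usp9x depended on the probe set.

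Members grouped under genome maintenance, cell cycle and RNA had ratios above 0 in 7 of 7 cases above background, against 54.1% of all genes. Usp37 was the one larger than the scatter, and the grouping was made with these values known. The other 6 lay between 0.01 and 0.14. They were Usp24, Usp28, which acts on MYC, Usp34, which acts on axin in Wnt signalling, Usp39, a splicing factor, Usp45 and Usp47, a protease of base excision repair. After centring on the median Usp24 turned to -0.02 and Usp28 to -0.02, and both were also below 0 after quantile normalization and loess. The count of 7 therefore depended on the scaling. Usp47 turned to -0.26 by its second probe set and Usp34 to -0.30, while both leading probe sets of Usp45 were above 0, at 0.13 and 0.11. Among members in none of these groups, Usp40 was at 0.17, Usp54 at 0.14, Usp53 at -0.29 and Usp43 at -0.37. The last is a bound, as Usp43 had 5.46, below background, on the HDAC9 siRNA array and 6.70 on the control array. It depended on the floor: the ratio was 0.00 under the 99th-percentile floor and -1.24 under the 75th-percentile one.

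**Figure D3:**
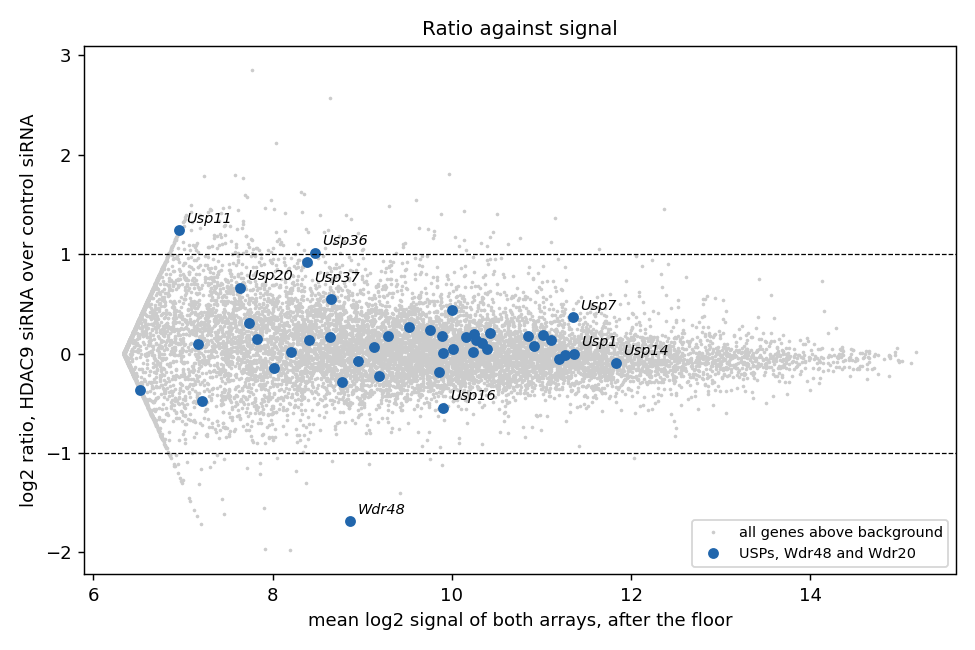
Ratio of HDAC9 siRNA to control siRNA on the log2 scale (vertical axis) against mean log2 signal of both arrays after the floor (horizontal axis), for all 12090 genes above background (grey) and the 44 members (blue); dashed lines are 2-fold. Usp11 lies on the edge drawn by the floor, Usp36 and Usp37 near the upper line, and Wdr48 at -1.68.

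The surroundings of the family in the ubiquitin system were set beside it through lists. Other deubiquitinases, meaning those outside the naming rule, had 0 of 32 genes past 2-fold, near the 1.81% of all genes. Their median log2 ratio was -0.01, against 0.03 over all genes. This list also counted Uspl1, a SUMO protease. Those with the largest ratios were Otub2, an OTU-family protease, at 0.63, Yod1, an OTU protease that works with the ATPase p97, at 0.56, and Otud7b, an OTU protease of NF-kappaB signalling, at 0.56. In the other direction were Zranb1, of the OTU family, at -0.53 and Atxn3, the ataxin-3 protease, at -0.52. The NF-kappaB inhibitors Tnfaip3 and Cyld were at 0.01 and 0.00; these last 4 genes were chosen after their values were seen.

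Genes of the Fanconi anaemia pathway and of PCNA ubiquitination, which hold the substrates of USP1 with WDR48, had 0 of 22 genes past 2-fold, again against 1.81% of all genes, and a median of -0.04. Fancd2, a substrate of USP1, had 5.40, below background, on the HDAC9 siRNA array and 7.0 on the control array, which put it at least 1.58-fold lower. This bound depends on the floor. Under the 75th-percentile floor 1 gene of the list was at least 2-fold lower. Atad5, which recruits USP1 to PCNA, had 7.23 on the HDAC9 siRNA array and 6.55 on the control array, a ratio of 0.68, and Brca2 was at 0.61. Pcna itself, chosen after its value was seen, was at -0.13.

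Cofactors and partners of other USPs, with Mdm2 and Mdm4 counted among them, had 0 of 14 genes past 2-fold, against 1.81% of all genes. The median was 0.08, with 12 above 0, against 54.1% of all genes. Sart3, which brings USP4 and USP15 to the spliceosome, had 9.22 on the HDAC9 siRNA array and 8.48 on the control array, a ratio of 0.74. Daxx, a partner of USP7, was at 0.33 and Atxn7l1, a relative of the SAGA subunit ATXN7, at 0.18. Of the ubiquitin-activating enzymes Uba7, which activates ISG15 and is an interferon-stimulated gene, was at 0.85 and Uba6 at -0.20. The counts of 0 past 2-fold are near the share over all genes, and nothing particular to these lists is read from them.

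**Figure D4:**
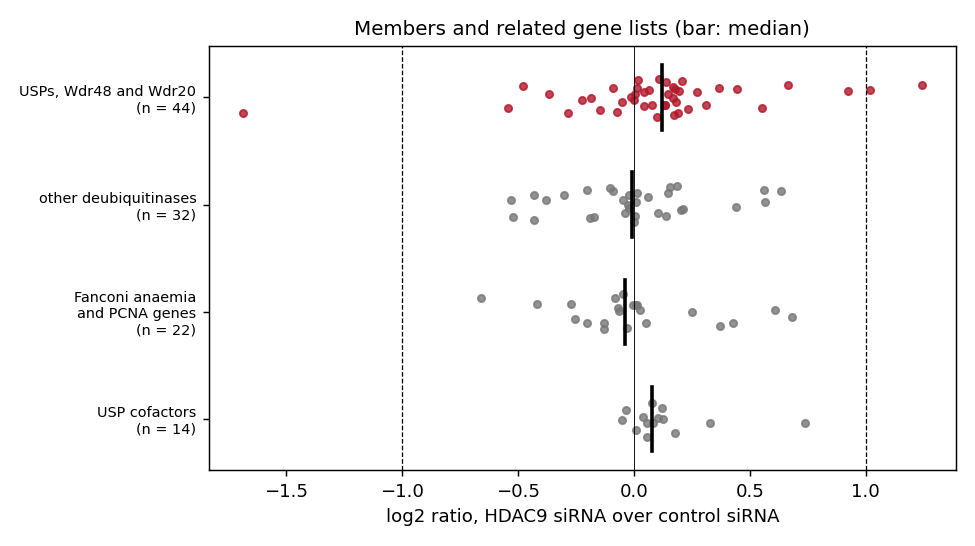
Ratio of HDAC9 siRNA to control siRNA on the log2 scale (horizontal axis) for members above background and for genes of 3 related lists; each point is a gene, black bars are medians and dashed lines 2-fold. The medians are 0.12 for the USPs with Wdr48 and Wdr20 (n = 44) and -0.01 for other deubiquitinases, Uspl1 counted among them (n = 32). They are -0.04 for Fanconi anaemia and PCNA genes (n = 22) and 0.08 for USP cofactors, Mdm2 and Mdm4 counted among them (n = 14).

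The siRNA target was dim. Hdac9 had 5.69, below background, on the HDAC9 siRNA array and 6.88 on the control array by probe set 1434572_at, which put it at least 1.46-fold lower, and its other probe set was below background on both arrays. This bound depended on the floor: the log2 ratio was 0.00 under the 99th-percentile floor and -1.19 under the 75th-percentile one. Of 10 macrophage markers 9 were above background and 0 past 2-fold, near the 1.81% of all genes, so nothing is read from that count. The tenth, Timd4, was below background on both arrays. All 10 mesothelial and stromal markers were above background, with a summed linear signal of 39144 on the HDAC9 siRNA array and 30275 on the control array. Their median log2 ratio was 0.01, with 5 of 10 above 0, against 54.1% of all genes. The fibroblast gene Dcn alone had log2 13.83 on the HDAC9 siRNA array and 13.70 on the control array. Past 2-fold upward were the collagen genes Col1a1 (1.80) and Col3a1 (1.46), and downward the mesothelin gene Msln (-1.11). Above background were 1 of 5 T cell markers, 1 of 4 B cell markers and 3 of 6 granulocyte and mast cell markers, against 12090 of all 18193 genes. Of these 3, the eosinophil marker Siglecf was at -1.08, S100a8 at -0.22 and Tpsab1, a bound, at 0.16. No marker had a deposited log2 signal of exactly 0 on either array, by the probe set that stands for it. Fewer cells of a type and less RNA per cell cannot be told apart in such samples, and the part of other cells in the ratios of the USPs was not tested.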

How the data were processed

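Total RNA was amplified and labelled with biotin for Affymetrix expression arrays, per the labels' protocols. The authors deposited a log2 signal for each probe set on each array. Signals were made with MAS5, an Affymetrix algorithm, per the submitters' processing notes, with no version, scaling target or detection calls given in the sources used. Trimmed mean linear signals were 497 on both arrays, so the authors' scaling was kept. Gene symbols came from a platform annotation dated 2016; 34945 of 45037 probe sets had 1 symbol, and all 49 members matched the RefSeq table of assembly GRCm38.p6 by gene identifier. Signals under the floor (log2 6.34) were raised to it, and where this touched 1 array the ratio is a bound. Counts past 2-fold are over genes that exceeded the floor on either array.

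Members, gene lists and role groups were chosen with earlier results of these data known. Every member could be named; of the other lists, those with the largest ratios were, and the text marks any gene picked once its value was known. With 1 array per group there was no test, and precision is limited by the number of arrays. Signals of different probe sets are not comparable as amounts of RNA. Alternatives tried were median centring, quantile normalization, loess (span 0.3, statsmodels 0.14.6), a floor at the 75th or the 99th receptor percentile, a pseudocount of 1 in place of a floor, the median ratio over probe sets above background, leaving out names in _s_at, _x_at and _a_at, and thresholds of 1.5-fold and 3-fold. The steps were tested on simulated data in which genes well above the floor were shifted by known folds, all probe sets of a gene alike. Calls at the floor, close to 2-fold or with probe sets that disagree were not covered by it.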

Additional observations from a re-analysis of the deposited data

How the results depend on the processing

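Using each gene's second probe set, and requiring a signal above background on both arrays, were added after seeing the data; the other alternatives were planned. Wdr48 stayed between -1.74 and -1.68 under every scaling and floor tried. Both of its signals lay above each floor, so no floor could move its ratio, and this range is no measure of stability. Wdr48 was at -0.13 by its second probe set, by the median of its probe sets' ratios, and once names in _s_at, _x_at and _a_at were left out. Under these last 3 alternatives 0 members were at least 2-fold lower; there were 2 under the 75th-percentile floor and 3 under none. Members at least 2-fold higher numbered 1 after centring, quantile normalization and loess, under the 99th-percentile floor, by the median over probe sets and among those above background on both arrays. They numbered 0 by the second probe set, 4 at 1.5-fold and 0 at 3-fold. The members' median kept its sign, between 0.05 and 0.13. Over the whole array, 658 genes were higher and 259 lower under the 75th-percentile floor, 2223 and 1481 without a floor, 944 and 337 at 1.5-fold, and 10 and 6 at 3-fold. Lower genes numbered 21 under the 99th-percentile floor and 29 when both arrays had to be above background. The value of Hdac9 was -1.19 under the 75th-percentile floor, 0.00 under the 99th-percentile one and -1.18 without any. Of 360 alternative values for the 42 other members, 330 moved by less than the probe-set scatter and 30 by more, 14 of these by the second probe set. Many of the 360 could not move by that much, so 330 is no measure of stability. Centring shifted every ratio by 0.03, and members with 1 probe set above background kept their value under the median over probe sets. A second probe set existed for 29 members, Wdr48 and Wdr20 included. Members past 2-fold that changed sign numbered 0. The cause of the shifts was not tested. No paired analysis was possible because each group had 1 array.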

Other observations

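Some genes and probe sets carry a USP name but are outside the family as defined here. Uspl1, which despite its name encodes a protease of the ubiquitin-like protein SUMO, had a log2 signal of 9.95 on the HDAC9 siRNA array and 9.74 on the control array, a log2 ratio of 0.20. Usp6nl, which encodes a regulator of RAB GTPases and not a protease, had ratios of 0.24, 0.63 and -0.39 by its 3 probe sets. Usp17la, of a family of rodent deubiquitinases, the antisense gene Usp46os2 and the Wdr20 relative Wdr20rt were below background on both arrays. Probe sets annotated with a USP and a neighbouring gene cannot be assigned to either. The one for Usp49 and Med20 had 7.23 on the HDAC9 siRNA array and 6.67 on the control array, a ratio of 0.56, against 0.15 for the probe set of Usp49 alone. The one for Usp50 and Polr2l had 11.83 on the HDAC9 siRNA array and 11.71 on the control array, whereas the probe sets of Usp50 alone were below background.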
